A study of Homo sapiens with 12 samples.

Results

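The response of PC9 cells to 8 days of erlotinib was measured as messenger RNA on one-colour microarrays, with 3 arrays of erlotinib-treated cells set against 3 arrays of cells in DMSO. These were 6 of the 12 arrays of the study, and the members were all probe sets paired with 1 gene symbol. They gave 19775 genes, of which 13165 were bright enough in at least 1 group to be tested and 6610 were not. PC9 is an established human lung adenocarcinoma line that carries an activating mutation of the EGFR gene, and erlotinib is an inhibitor of the EGFR kinase. The control cells had DMSO, the solvent, for 8 days, and the treated cells had 2 micromolar erlotinib for 8 days, in RPMI medium with 10% fetal bovine serum renewed after 4 days. The other line of the study, HCC827, also an EGFR-mutant lung adenocarcinoma line, had the same treatments in 6 arrays and is used here only where the PC9 change was tested against its change. Nothing in the labels says that replicates were grown apart, so that every p-value measured the spread between these samples, which may be technical. With 3 arrays a group, precision was set by their number.

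EGFR is a receptor tyrosine kinase that drives growth through the RAS and ERK kinases, through phosphatidylinositol kinase and AKT, and through STAT factors. AKT keeps FOXO transcription factors out of the nucleus, while NF-kB factors, which act on inflammatory genes, are held in the cytoplasm by inhibitors such as NFKBIA. Cells that outlive weeks of an EGFR inhibitor without a resistance mutation are known as drug-tolerant cells, in which slow growth and altered secretion, adhesion and matrix genes are well described.

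Markers on the array check that the cells were epithelial but do not identify the line. All 14 epithelial carcinoma markers on the array were tested, and the summed signal of the list was 22440 to 24030 in DMSO and 22680 to 25630 in erlotinib. EPCAM, a surface glycoprotein of epithelium, read 2536, 2878 and 2855 in DMSO and 2292, 2231 and 2204 in erlotinib. NKX2-1, the lineage factor of lung epithelium, was dim in DMSO, at 11.7, 20.5 and 10.2. The signal is the deposited array brightness on a linear scale, and values are given in the order of replicates 1, 2 and 3. Of markers of cells that a pure line should lack, 3 of 9 leukocyte, 2 of 8 endothelial and 2 of 10 fibroblast markers were bright enough to be tested. The defining leukocyte gene PTPRC, the endothelial genes KDR and VWF and the fibroblast genes COL3A1, PDGFRA and FAP were all under the filter. The endothelial genes that were tested were PECAM1, at 878.9, 782.9 and 843.6 in DMSO and 521.7, 477.3 and 520.4 in erlotinib, and CDH5, which rose by 0.72 ± 0.12. The summed signal of the leukocyte list was 31.3 to 50.1 in DMSO and 106.9 to 116.6 in erlotinib, that of the endothelial list 908 to 995.7 and 669 to 718.7, and that of the fibroblast list 93 to 133.6 and 393.6 to 480.5.

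Array medians were 11.1 to 12.5 in DMSO and 13.9 to 14.5 in erlotinib, and arrays of a treatment correlated across genes with r from 0.9929 to 0.9957. PC9 DMSO replicate 2 stood apart: on it 23 genes read more than 2-fold above both other DMSO arrays. The same count was 0 and 2 on DMSO replicates 1 and 3, and 1, 0 and 1 on the erlotinib arrays. More than 2-fold below both others were 11, 0 and 0 genes on the DMSO arrays and 0, 3 and 1 on the erlotinib arrays. The 23 genes included the connexin GJA1, N-cadherin CDH2, the matrix protein SPARC and the fibrillin FBN2. Of the 23 genes, 6 passed the test with that array and 11 without it. Plated cell number and vessel also differed, since the protocol put the control cells, plated in smaller number, into 10 cm dishes and the treated cells into 2 flasks of 150 cm, while the series text names flasks for all cells. Neither can be told apart from the drug. In this bulk measurement, fewer cells of a state and less RNA per cell cannot be told apart either.

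Log2 changes were taken after 8 was added to each signal, are erlotinib minus DMSO and carry their standard error. Calls required a p under 0.05 in limma after Benjamini-Hochberg adjustment over all genes tested. In PC9, 8521 genes were called (64.7%), 4790 of them higher (36.4%) and 3731 lower (28.3%). Calls of at least 2-fold numbered 1267 higher (9.62%) and 449 lower (3.41%). Of these, 257 and 66 reached 4-fold, and 86 and 15 reached 8-fold. The 3 erlotinib arrays lay wholly above or below the 3 DMSO arrays in 8549 genes (64.9%), and in 1265 of the 1267 rises and 448 of the 449 falls of at least 2-fold.

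Of the 1267 rises, 335 (26.4%) started from a mean DMSO signal under 13, the median of the table, and of the 449 falls 69 (15.4%) ended under it. Neither share is a finding, since a gene that dim in DMSO was tested only if another group was brighter, and near the bottom of the scale the added 8 leaves no room for a 2-fold fall. When each array was centred on its own median signal, the median log2 change of all genes moved by -0.15, from 0.05 to -0.10, and the share of higher genes among those called went from 56.2% to 41.6%. Small list medians are therefore read against the median of all genes. Counts with median centring stand beside many, but not all, of the lists whose balance of rises and falls it turned or reduced. List counts are likewise to be read against the 36.4% of all genes called higher and the 28.3% called lower.

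**Figure D1:**
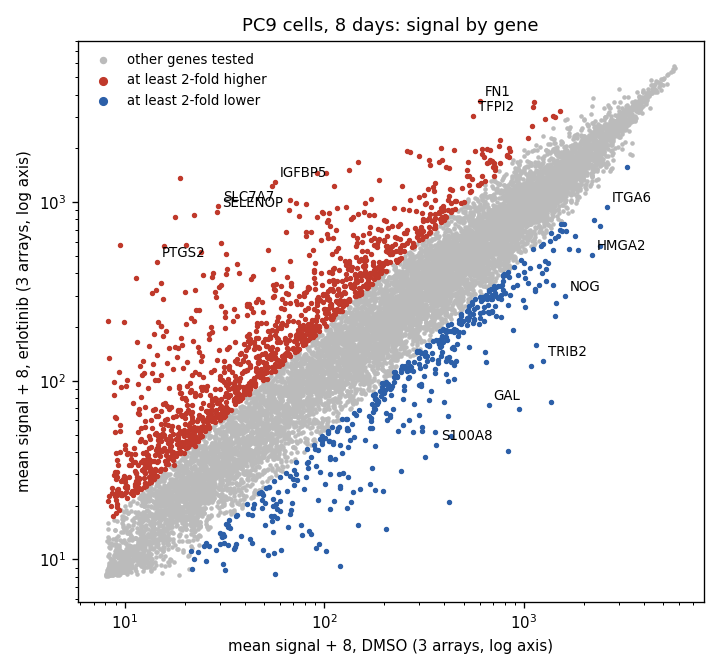
Mean signal plus 8 of each gene tested in DMSO (horizontal) and in erlotinib (vertical), both on log axes, 3 arrays each; red and blue points are the 1267 genes higher and the 449 genes lower by at least 2-fold. Few falls can appear at the left, because of the filter and the added 8.

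The highest rises below the very top of the ranking were in genes of unlike function, among them a transporter subunit, a cyclooxygenase and secreted proteins. The ranking held only called genes whose treatments did not overlap, so the absence of overlap is no finding for the genes named from it. PTGS2, the inducible cyclooxygenase, read 4.5, 7.8 and 7.1 in DMSO and 493.3, 438.5 and 426.2 in erlotinib, a log2 change of 4.997 ± 0.13 (adjusted p = 2.16e-14). SLC7A7, a light chain of a cationic amino acid exchanger, read 25, 20.2 and 19.1 and then 951.5, 910.7 and 959.4, a change of 5.02 ± 0.10 (adjusted p = 2.52e-15). SELENOP, a secreted selenium carrier, read 13.5, 27.5 and 22.4 in DMSO and 980.1, 747.6 and 881.4 in erlotinib, a change of 4.94 ± 0.18 (adjusted p = 8.76e-13). For all 3 genes the lowest erlotinib array was far above the highest DMSO array. IGFBP5, a binding protein of insulin-like growth factors, was already measurable in DMSO at 46.3, 55.2 and 43.5 and reached 1289, 1237 and 1341 (log2 change 4.53 ± 0.15). TP53INP1, a stress protein of the autophagy machinery, read 9.8, 20.6 and 18.3 and then 644.1, 430.3 and 470.6 (4.44 ± 0.15). TNNC1, a calcium-binding troponin, read 9.3, 5.2 and 2.7 and then 277.1, 309.4 and 319.2 (4.52 ± 0.17). Both treatments were separate for each of them. Among the same places of the ranking were the long noncoding RNA LINC01279 (4.82 ± 0.11), the secreted cysteine-rich protein CRISP3 (4.70 ± 0.12), the oestrogen sulphotransferase SULT1E1 (4.57 ± 0.16), FILIP1L (4.51 ± 0.08), the T cell inhibitory ligand VTCN1 (4.50 ± 0.14) and the kinase DCLK2 (4.44 ± 0.15). CRISP3 read 0.2, 0.5 and 0.1 in DMSO, so its fold depends on the constant of 8.

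The falls at the same places were smaller in log2 terms. TRIB2, a pseudokinase that guides proteins to degradation, read 1293, 1174 and 1266 in DMSO and 129.4, 109.5 and 126.5 in erlotinib, and fell by 3.27 ± 0.14 (adjusted p = 6.29e-12). GAL, the neuropeptide galanin, read 745.4, 624.5 and 601.5 and then 45.5, 78.4 and 70.6, and fell by 3.21 ± 0.15. MALL, a membrane raft protein, read 1192, 1052 and 972.6 and then 104.2, 124.2 and 112.2, and fell by 3.15 ± 0.08. Every erlotinib array of these 3 genes lay far below every DMSO array. SLCO4A1, an organic anion transporter, read 447.3, 414.3 and 412.4 and then 39.1, 45.3 and 38.3 (-3.15 ± 0.08). SH3RF3, a scaffold with a RING domain, read 342.8, 291.4 and 296.0 and then 18.2, 28.5 and 41.0 (-3.14 ± 0.19). MMP1, the interstitial collagenase, read 84.5, 86.8 and 110.4 and then 2.3, 2.0 and 5.2 (-3.19 ± 0.14), so that it ended near the bottom of the scale. The interleukin receptors IL1R2 (-3.26 ± 0.15), IL18R1 (-2.96 ± 0.12) and IL13RA2 (-2.96 ± 0.13), the calcium-binding S100A8 (-3.06 ± 0.11), the noncoding SPRY4-IT1 (-3.01 ± 0.17) and the T cell receptor segment TRDV3 (-2.97 ± 0.15) completed these places.

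**Figure D2:**
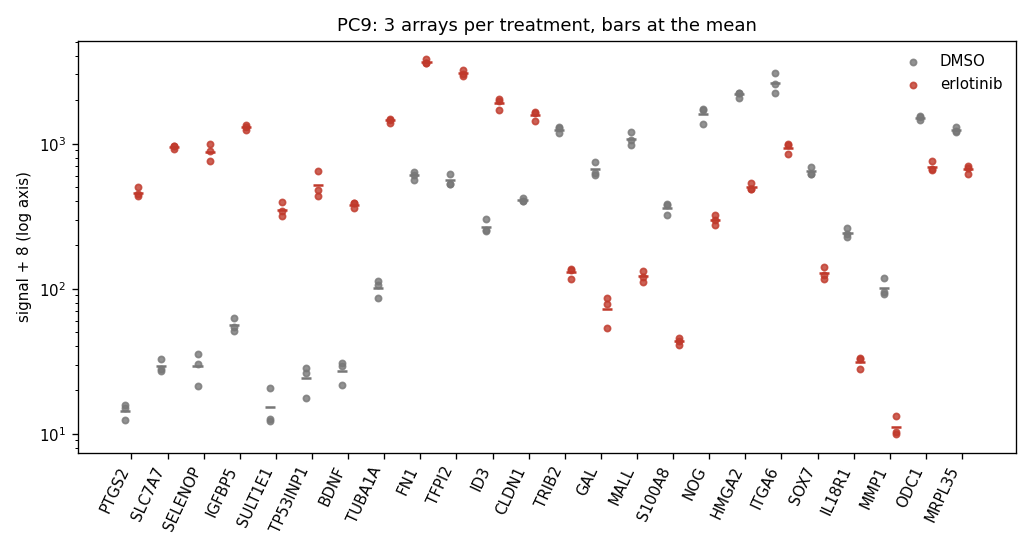
Signal plus 8 on a log axis for 24 genes named in the text, with 1 point per array (grey DMSO, red erlotinib, 3 arrays each) and a bar at the mean. The treatments do not overlap for any of the genes drawn, which was a condition of the choice for those named by rank.

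Ranked by the signal itself, again among called genes without overlap, other genes led. FN1, the matrix glycoprotein fibronectin, read 556.9, 627.7 and 604.4 in DMSO and 3604, 3807 and 3564 in erlotinib (log2 change 2.60 ± 0.06). TFPI2, a secreted protease inhibitor, read 515.8, 613.1 and 523.0 and then 3038, 3188 and 2900 (2.45 ± 0.08). ID3, an inhibitor of helix-loop-helix factors, read 294.4, 240.2 and 246.2 and then 1712, 2013 and 1965 (2.83 ± 0.09). The arrays of a treatment lay close together for these genes, and the treatments did not overlap. IGFBP3 rose by 1.68 ± 0.06, the cytochrome CYP1B1 by 1.64 ± 0.09, the cytokine TGFB2 by 1.10 ± 0.08, the matrix protein CCDC80 by 2.89 ± 0.07 and RARRES1 by 1.19 ± 0.13. In the other direction HMGA2, an architectural chromatin protein of embryonic and tumour cells, read 2068, 2240 and 2221 and then 527.8, 478.1 and 479.5, and fell by 2.12 ± 0.06. Its relative HMGA1 read 3174, 3391 and 3321 and then 1552, 1495 and 1623, and fell by 1.08 ± 0.07. ITGA6, a laminin receptor subunit, read 2226, 2556 and 3046 and then 965.6, 840.7 and 984.5, and fell by 1.47 ± 0.09. For both HMGA genes and for ITGA6 the treatments were apart. The ETS factor ETV5, the phosphate transporter SLC20A1, the sialomucin PODXL, the hyaluronan receptor CD44 and the elastase inhibitor PI3 were the other large falls in signal, with log2 changes of -2.10, -1.70, -0.92, -0.88 and -1.50. EGFR, the drug's target, read 1207, 1175 and 1203 and then 817.1, 905.7 and 841.8, and fell by 0.48 ± 0.05 (adjusted p = 1.03e-06).

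Chemokines, the secreted attractants of leukocytes, were mostly higher: of 19 tested, 13 rose and 1 fell, 6 rose at least 2-fold, and the median log2 change was 0.68, against 0.05 for all genes. CXCL8, the main neutrophil attractant, read 59.0, 77.0 and 63.3 in DMSO and 543.6, 773.8 and 1161 in erlotinib (3.43 ± 0.18). CXCL1, of the same class, read 6.2, 5.6 and 6.2 and then 109.4, 174.1 and 237.5 (3.63 ± 0.17). The treatments did not overlap, but the erlotinib arrays differed among themselves, with replicate 3 highest for both genes. Of 14 interleukins 6 rose, 3 fell and 4 rose at least 2-fold, with a median of 0.03. Centring or quantile normalization turned that median below 0, to -0.12 with either. IL23A, a subunit of interleukin 23, read 28.6, 24.5 and 23.1 and then 109.6, 131.7 and 96.3 (1.85 ± 0.12), with no overlap. Among 33 interleukin receptors the calls were split, 10 higher and 11 lower, but 6 fell and 2 rose at least 2-fold. IL18R1 read 230.4, 219.1 and 256.1 and then 25.2, 24.9 and 19.8. IL1R2, a decoy receptor of interleukin 1, read 141.1, 143.9 and 131.4 and then 8.0, 10.7 and 4.0. Both receptors were lower on every erlotinib array than on any DMSO array. Of 25 TNF superfamily ligands and receptors 11 rose and 8 fell (9 and 10 with median centring). The ligand TNFSF4 rose by 2.16 ± 0.13, TNF rose by 1.68 ± 0.16 from signals of at most 2.2, and the TRAIL receptor TNFRSF10A fell by 1.62 ± 0.08.

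The upstream sequence of genes was searched for letters that named factors are known to bind, from 250 bases before to 50 bases after the RefSeq start in build GRCh38.p14, on both strands. A sequence was at hand for 990 of the 1267 rises, 341 of the 449 falls and 10676 of the genes tested. The kappa-B letters of NF-kB, searched in 2 exact forms that begin with GGGA and end with TTTCC, stood in 1.92% of the rises (19 genes), 0.587% of the falls (2 genes) and 0.562% of genes tested (60 genes), and in 0.407% of all 27305 promoters of the table. Of those 60 genes 33 were called higher, 10 lower and 17 not called, with a median log2 change of 0.40. Of all genes tested 36.4% were called higher and 28.3% lower, with a median of 0.05. The 2 falls, named after their values were seen, were CACHD1 and NDE1. The rises included the chemokine genes CXCL1, CXCL2, CXCL3 and CXCL6 and, named after their values were seen, genes of NF-kB itself and of its brakes. NFKBIA, the inhibitor that holds NF-kB in the cytoplasm, went from a mean signal of 89.2 ± 15.8 to 335.5 ± 63.4 (SD, n = 3), a log2 change of 1.82 ± 0.12. NFKBIZ, a nuclear relative, went from 191.1 ± 41.2 to 791.4 ± 72.0 (2.02 ± 0.11). CYLD, a deubiquitinase that restrains the pathway, went from 43.1 ± 6.1 to 202.5 ± 12.3 (2.05 ± 0.10). These means were separated by more than the spread of the arrays. TNFAIP3, another deubiquitinase of the pathway, rose by 1.07 ± 0.11, the subunit NFKB2 by 1.43 ± 0.16, the subunit REL by 1.31 ± 0.10 and OPTN, an adaptor that binds ubiquitin chains, by 2.36 ± 0.09. CXCL2 rose by 1.63 ± 0.15 and CXCL3 by 2.79 ± 0.22. Stretches around the match are shown for 8 of the genes because they set the chemokines beside the pathway's own genes. They are printed from 5′ to 3′ on the strand of the gene, with the kappa-B letters, or their reverse complement, in capitals.
CXCL1, chr4:73869289-73869348, plus strand: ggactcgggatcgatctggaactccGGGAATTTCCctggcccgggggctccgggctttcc
CXCL2, chr4:74099239-74099298, minus strand: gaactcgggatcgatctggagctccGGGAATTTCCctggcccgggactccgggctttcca
CXCL3, chr4:74038734-74038793, minus strand: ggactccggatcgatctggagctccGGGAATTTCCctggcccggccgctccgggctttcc
CXCL6, chr4:73836563-73836622, plus strand: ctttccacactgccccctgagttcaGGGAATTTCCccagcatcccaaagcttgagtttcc
NFKBIA, chr14:35404796-35404855, minus strand: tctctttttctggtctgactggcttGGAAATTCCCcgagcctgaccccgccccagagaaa
NFKB2, chr10:102395659-102395704, plus strand: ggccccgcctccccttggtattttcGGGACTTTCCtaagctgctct
TNFAIP3, chr6:137867167-137867226, plus strand: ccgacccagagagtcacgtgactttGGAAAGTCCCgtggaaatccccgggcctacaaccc
REL, chr2:60881503-60881562, plus strand: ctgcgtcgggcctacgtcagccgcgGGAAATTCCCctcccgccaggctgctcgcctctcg
In CXCL1 and CXCL3 the match began 79 bases before the start, and in CXCL2 78 bases before it, within upstream stretches that are nearly alike in these paralogs. A match is only a run of letters, and binding was not measured.

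Shares for other motifs are given in the same order. The FOXO letters GTAAACA stood in 6.06% of the rises, 2.64% of the falls and 3.60% of genes tested. The letters of the interferon-stimulated element, a pair of GAAA repeats with any 2 bases between them, stood in 7.48%, 3.23% and 3.96%. The ETS letters CCGGAAGT were less frequent in both groups, at 4.34% and 3.23%, than in genes tested, at 9.49%, but stood in 4.95% of all promoters. The E2F letters TTTCCCGC or TTTGGCGC stood in 2.32% of the rises, 5.87% of the falls and 4.43% of genes tested, and the E-box CACGTG in 8.59%, 13.5% and 12.4%. The AP-1 letters TGANTCA stood in 9.39%, 10.6% and 7.34%, the TEAD letters GGAATG in 17.98%, 16.4% and 15.1% and the CCAAT box in 40.0%, 37.5% and 43.2%. The remaining motifs searched were the cyclic AMP element, STAT, serum response and TATA letters, at 3.54%, 9.19%, 0.404% and 4.75% of the rises against 3.74%, 8.599%, 0.150% and 3.16% of genes tested. The motifs overlap in part, and the shares are descriptions of letters in a window. Examples of the FOXO letters among strong rises, chosen after values were seen, are given next, with the letters in capitals, because they belong to genes of unlike function that rose by 3.21 to 4.94 on the log2 scale.
SELENOP, chr5:42811906-42811962, minus strand: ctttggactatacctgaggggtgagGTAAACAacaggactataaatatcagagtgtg
DEPP1, chr10:44978958-44979014, minus strand: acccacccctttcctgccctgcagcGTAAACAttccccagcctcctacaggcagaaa
BDNF, chr11:27722095-27722151, minus strand: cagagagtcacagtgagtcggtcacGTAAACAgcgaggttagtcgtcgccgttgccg
C4BPB, chr1:207089102-207089158, plus strand: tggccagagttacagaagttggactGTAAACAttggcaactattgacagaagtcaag
SELENOP carries selenium, DEPP1 is a regulator of autophagy, BDNF is a neurotrophin and C4BPB is a chain of the complement inhibitor that binds C4b. DEPP1 read 8.2, 7.6 and 10.1 in DMSO and 137.1, 152.7 and 146.6 in erlotinib, a log2 change of 3.21 ± 0.12, with no overlap.

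Among growth and patterning signals, TGF-beta and BMP ligands and antagonists had 15 higher and 3 lower of 24 tested, 9 and 2 of them at least 2-fold, with a median of 0.46. NOG, the BMP antagonist noggin, read 1364, 1710 and 1732 in DMSO and 288.2, 266.8 and 312.2 in erlotinib, and fell by 2.43 ± 0.10. FSTL3, an activin antagonist, read 65.1, 43.8 and 50 and then 360.1, 311.7 and 328.1 (2.50 ± 0.14). INHA, the inhibin alpha chain, read 6.6, 6.1 and 4.9 and then 65.8, 60.3 and 56.1 (2.31 ± 0.14). All 3 were separate by treatment, NOG downward and the other two upward. WNT ligands, receptors and secreted inhibitors had 16 higher and 8 lower of 30, with a median of 0.40. The ligand WNT6 rose by 2.26 ± 0.18, WNT11 rose by 1.84 ± 0.13 and the receptor kinase ROR1 fell by 1.69 ± 0.11. Of 29 vascular and mesenchymal growth factors 12 rose and 5 fell, 6 and 0 of them at least 2-fold, but 12 rose and 11 fell with median centring and 12 and 10 with quantile normalization, with a median of -0.10 under both. BDNF read 13.6, 22.6 and 21.5 and then 379.9, 380.0 and 352.2 (3.81 ± 0.11). PDGFB, a platelet-derived growth factor chain, read 38.5, 30.8 and 53.9 and then 233.4, 231.4 and 239.6 (2.33 ± 0.13). Neither gene overlapped between treatments. Guidance genes moved in the same direction in greater part: of 24 semaphorins, plexins and neuropilins 14 rose and 7 fell (median 0.46), and of 14 netrins, slits and their receptors 10 rose and 0 fell (median 0.49). SEMA5A, a semaphorin, read 142.0, 140.7 and 111.1 and then 841.6, 813.1 and 809.0 (2.58 ± 0.11), with no overlap, while the receptor PLXNA4 fell by 1.74 ± 0.18.

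**Figure D3:**
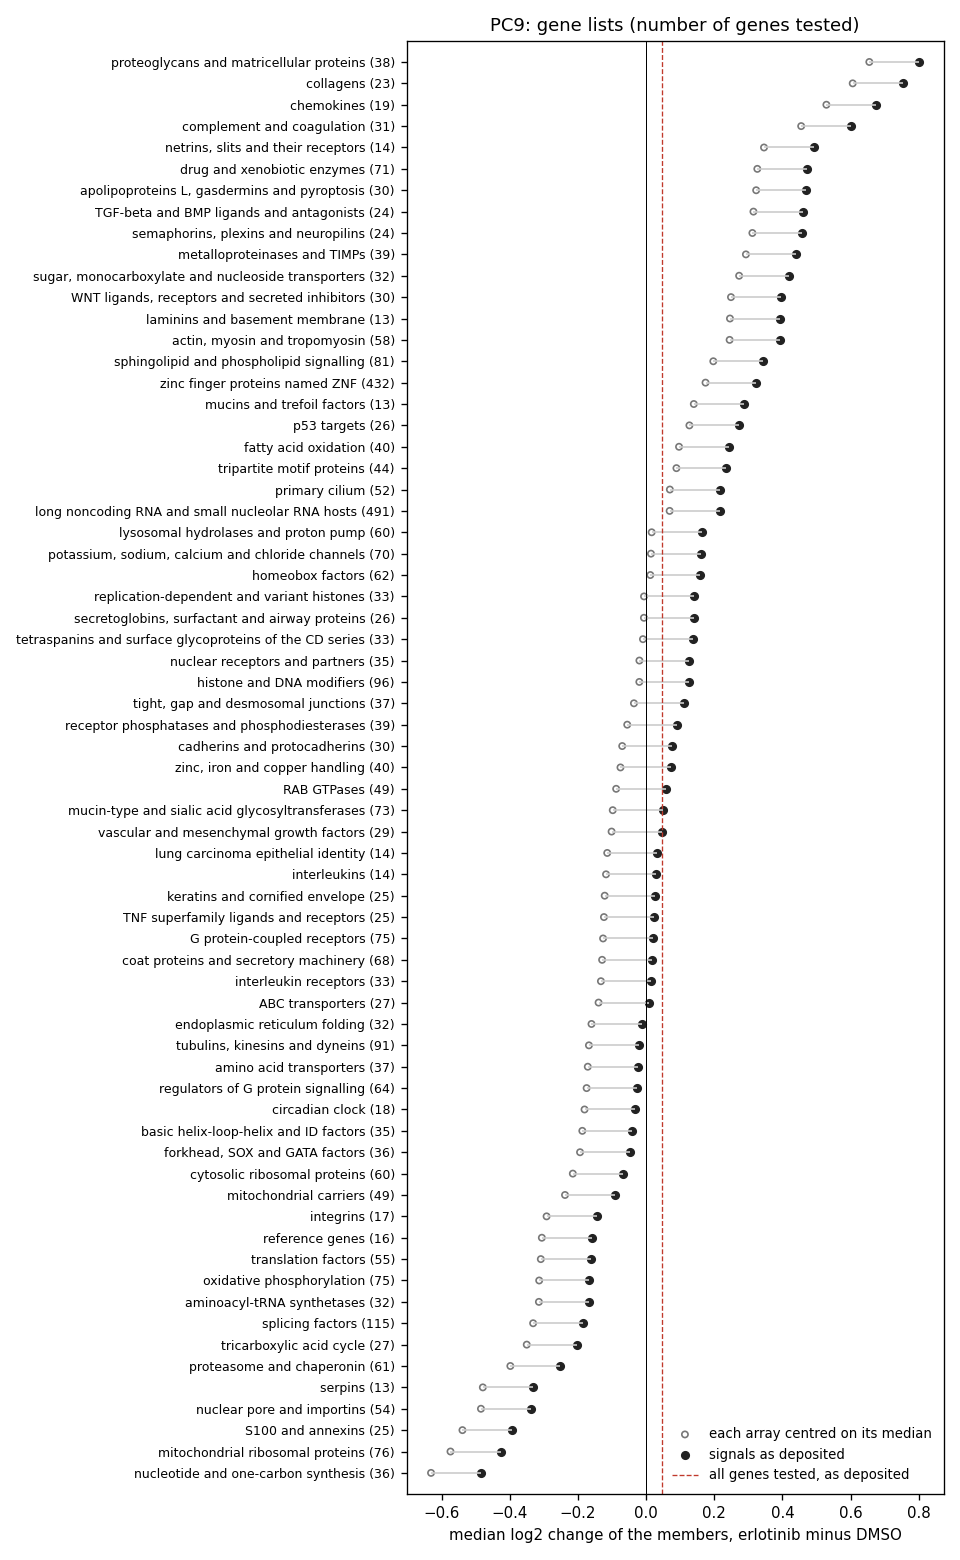
Median log2 change, erlotinib minus DMSO in PC9, of the gene lists drawn, each with its number of genes tested; filled points use the signals as deposited, open points each array centred on its median, and the dashed line is the median of all genes tested (0.05). Proteoglycan, collagen, chemokine and complement lists lie at the top, and mitochondrial ribosomal and nucleotide synthesis lists at the bottom with either scaling.

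Among lists with at least 10 genes tested, the matrix lists of proteoglycans and of collagens had the highest medians. Of 38 proteoglycans and matricellular proteins, 25 rose and 5 fell, 17 and 0 at least 2-fold, with a median of 0.80. LUM, the proteoglycan lumican, read 1.2, 2.5 and 0.5 in DMSO and 128.7, 83.3 and 101.3 in erlotinib (3.57 ± 0.14). FBN1, a fibrillin of microfibrils, read 5.4, 7.3 and 7.0 and then 139.2, 133.5 and 123.7 (3.27 ± 0.11). POSTN, periostin, rose by 2.79 ± 0.18. LUM and FBN1 were near the bottom of the scale on every DMSO array and well above it on every erlotinib array. Of 23 collagens 16 rose and 3 fell, 10 and 2 at least 2-fold, with a median of 0.75. COL4A4, a chain of basement membrane collagen, read 21.0, 18.9 and 27.1 and then 645.8, 532.1 and 562.0 (4.28 ± 0.13). Its partner chain COL4A3 read 3.3, 4.6 and 4.9 and then 125.5, 83.8 and 91.1 (3.12 ± 0.14). COL13A1, a transmembrane collagen, read 175.0, 205.7 and 206.7 and then 8.2, 5.7 and 6.7 (-3.78 ± 0.14). COL1A1, of fibrillar collagen, rose by 1.93 ± 0.10. LUM and COL1A1 are also the tested markers of fibroblasts, whose list sums are given above and whose other 8 markers were under the filter. The part of other cells in these rises was not tested. Of 13 laminins and basement membrane genes 8 rose and 1 fell, with FRAS1 up by 1.97 ± 0.10 and the proteoglycan HSPG2 by 1.63 ± 0.12.

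Proteases and their inhibitors were mixed. Of 39 metalloproteinases and TIMPs 22 rose and 7 fell, 20 and 10 with median centring (median 0.44). MMP24 read 22.1, 18.7 and 16.4 and then 197.6, 179.0 and 201.8 (2.90 ± 0.09), and ADAMTS6 rose by 2.58 ± 0.08, while MMP1 fell as given above. Of 13 serpins 3 rose and 6 fell, 1 and 4 at least 2-fold, with a median of -0.33. SERPINB3, a squamous cell antigen, read 39.0, 45.5 and 48.0 and then 2.1, 4.4 and 1.3 (-2.31 ± 0.13), with no overlap. Complement and coagulation genes had 18 higher and 5 lower of 31, 13 and 3 at least 2-fold, and a median of 0.60. C1S, a protease of the first complement component, read 24.5, 19.1 and 21.6 and then 324.3, 332.4 and 322.0 (3.50 ± 0.11). C4BPB read 18, 26.9 and 21.8 and then 348.2, 355.1 and 307.7 (3.52 ± 0.12). Both were separate by treatment, and the neighbours of C1S, C1R and C1RL, rose by 1.85 ± 0.11 and 1.55 ± 0.08.

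At the cell surface, adhesion genes did not share a direction. Of 37 tight, gap and desmosomal junction genes 15 rose and 6 fell, but 10 rose and 12 fell with median centring, which took the median from 0.11 to -0.04. CLDN1, a claudin of tight junctions, read 392.3, 395.1 and 416.7 and then 1434, 1643 and 1609 (1.94 ± 0.08). GJB2, a connexin, read 360.8, 341.0 and 345.9 and then 103.7, 103.0 and 118.9 (-1.62 ± 0.07). Both were apart, in opposite directions. GJA1 read 2.7, 65 and 7.6 and then 79.4, 64.1 and 74.7, so DMSO replicate 2 overlapped with the erlotinib arrays. Its change was 1.81 ± 0.43 (adjusted p = 0.00161) with that array and 2.64 (adjusted p = 7.59e-11) without it. Of the other named junction and contractile genes on which this array stood high, CLDN11 changed by 1.53 with it and 2.35 without it, MYLK by 2.56 and 3.26, and SPARC by 1.03 (adjusted p = 0.0961) and 2.06. Among 17 integrins 5 rose and 8 fell, among them ITGB3, up by 2.01 ± 0.15. ITGAM rose by 2.17 ± 0.16, but its other probe set was called in the opposite direction, so its direction is uncertain. ITGAM and CSF1R, which rose by 1.67 ± 0.13 to signals of 20.4 to 21.1, were the leukocyte markers that rose, and the list sums are given above. Of 30 cadherins and protocadherins 12 rose and 6 fell, 40% and 20%, against 36.4% and 28.3% of all genes tested. FAT3, a giant cadherin, read 6.9, 11.4 and 14.9 and then 203.0, 138.5 and 152.8 (3.18 ± 0.17), without overlap.

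Among genes of epithelial differentiation, S100 and annexin genes were mostly lower, and the keratin and airway lists were split. Of 25 S100 and annexin genes 5 rose and 16 fell, 3 and 6 at least 2-fold, with a median of -0.39. S100A8 read 378.9, 316.0 and 367.1 in DMSO and 35.5, 38.0 and 32.9 in erlotinib. Its partner in the calprotectin complex, S100A9, read 980.5, 899.6 and 923.6 and then 50.6, 69.1 and 64.6 (-3.77 ± 0.11). S100A5 fell by 2.49 ± 0.20. No erlotinib array of these genes approached a DMSO array. Of 25 keratins and cornified envelope genes 10 rose and 8 fell (8 and 9 with median centring), with KRT16 up by 1.62 ± 0.16 and the envelope precursor SPRR1B at -1.69 ± 0.10. Of 13 mucins and trefoil factors 7 rose and 2 fell. MUC4, a membrane mucin, read 34.7, 37.5 and 39.8 and then 251.1, 276.1 and 272.9 (2.60 ± 0.13). MUC1 read 66.8, 48.5 and 61.8 and then 500.9, 389.8 and 493.9 (2.81 ± 0.12). TFF1, a trefoil peptide, read 74.4, 74.9 and 77.2 and then 6.0, 6.3 and 7.0 (-2.53 ± 0.13). The mucins lay higher and TFF1 lower on each erlotinib array. Of 26 genes of the secretoglobin, surfactant and airway list 11 rose and 9 fell, 9 and 5 at least 2-fold. The list also held pregnancy-specific glycoproteins, so these counts are not of airway genes alone. Its largest rises were PSG5 (3.85 ± 0.13) and PSG1 (3.47 ± 0.13), and BPIFB1, a secreted airway protein, rose by 3.41 ± 0.14. ELF3, an epithelial ETS factor, read 372.0, 335.1 and 339.7 and then 1333, 1255 and 1210 (1.84 ± 0.08), with no overlap.

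Cytoskeletal genes were more often higher among actin and myosin genes than among tubulins and motors, a difference that was not tested. Of 58 actin, myosin and tropomyosin genes 39 rose and 6 fell, 12 and 1 at least 2-fold, with a median of 0.39. MYL9, a regulatory myosin light chain, read 14, 23.4 and 5.6 and then 739.9, 914.4 and 858.0. TAGLN, an actin-binding protein of smooth muscle, read 28.3, 19.8 and 23.8 and then 204.8, 271.6 and 229.0. Both genes were separate by treatment. Of 91 tubulins, kinesins and dyneins 33 rose and 34 fell (24 and 43 with median centring). TUBA1A, an alpha tubulin, read 78.3, 105.7 and 97.6 and then 1454, 1481 and 1390 (3.84 ± 0.09). MAP2, a microtubule-binding protein of dendrites, read 56.1, 75.1 and 61.2 and then 1028, 996.4 and 906.9 (3.78 ± 0.11). The motor DNAH5 of cilia rose by 2.18 ± 0.10. Both TUBA1A and MAP2 showed a gap between treatments many times the spread within them. Of 52 primary cilium genes 24 rose and 3 fell, with a median of 0.22. With median centring 18 rose and 7 fell, with a median of 0.07, and with quantile normalization 21 and 8. The transcription factor GLI2 rose by 1.84 ± 0.14.

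In metabolism, more drug and xenobiotic enzymes rose than fell, and more genes of nucleotide and one-carbon synthesis fell than rose. Of 71 drug and xenobiotic enzymes 42 rose and 14 fell, 19 and 2 at least 2-fold, with a median of 0.47. SULT1E1 read 4.3, 4.7 and 12.6 and then 386.9, 310.2 and 334.0, with no overlap. The glutathione transferases GSTM1 and GSTM2 rose by 3.04 ± 0.10 and 3.00 ± 0.12, but these are near-identical paralogs whose probes may share targets, so their values are uncertain. Of 36 nucleotide and one-carbon synthesis genes 4 rose and 25 fell, with a median of -0.48. ODC1, the first enzyme of polyamine synthesis, read 1515, 1447 and 1551 and then 649.6, 754.2 and 659.5 (-1.12 ± 0.07). SRM, spermidine synthase, read 428.5, 352.5 and 372.3 and then 179.9, 196.5 and 181.6 (-1.01 ± 0.08). These 2 polyamine enzymes, which the list also holds, were its only members that fell at least 2-fold, and neither overlapped. Among 40 fatty acid oxidation genes 19 rose and 9 fell (15 and 10 with median centring). The largest change was a fall, of the peroxisomal ACOX2. It read 132.0, 100.6 and 103.3 and then 0.7, 1.8 and 1.1 (-3.70 ± 0.16). EHHADH, also peroxisomal, rose by 1.40 ± 0.15. Of 27 tricarboxylic acid cycle genes 3 rose and 17 fell, and of 75 oxidative phosphorylation genes 3 rose and 40 fell, with medians of -0.20 and -0.17 and no 2-fold change in either list. Lysosomal hydrolases and proton pump genes had 28 higher and 12 lower of 60, and 23 and 17 with median centring. CTSO, a lysosomal cathepsin, read 3.3, 7.2 and 5.1 and then 165.3, 134.4 and 143.4 (3.57 ± 0.12), while LAPTM5 fell by 1.90 ± 0.11.

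Transporters had few shared directions. Of 37 amino acid transporters 10 rose and 11 fell, SLC7A7 being the 1 that rose at least 2-fold, and the glutamate transporters SLC1A6 and SLC1A3 fell by 1.19 ± 0.13 and 1.06 ± 0.11. Of 32 sugar, monocarboxylate and nucleoside transporters 16 rose and 7 fell, 12 and 3 at least 2-fold (15 and 11 called with median centring). SLC16A4, of the monocarboxylate family, read 7.2, 10.8 and 6.4 and then 207.3, 163.4 and 176.5 (3.56 ± 0.11). Of 40 zinc, iron and copper genes 13 rose and 13 fell. STEAP4 and STEAP1, metalloreductases of 1 family, moved apart: STEAP4 read 87.5, 89.9 and 88.4 and then 614.6, 591.8 and 608.0 (2.67 ± 0.08). STEAP1 read 499.1, 482.2 and 475.3 and then 181.4, 177.9 and 180.3 (-1.39 ± 0.06). The spread of both within a treatment was narrow. Of 70 ion channels and aquaporins 26 rose and 15 fell, 37.1% and 21.4%, against 36.4% and 28.3% of all genes tested. With median centring 20 rose and 16 fell. AQP3, a glycerol channel, rose by 2.54 ± 0.08 and ANO1, a chloride channel, fell by 2.63 ± 0.25. Of 27 ABC transporters 9 rose and 7 fell (8 and 8 with median centring). ABCC2, an export pump for conjugates, read 398.4, 377.6 and 390.3 and then 54.0, 86.0 and 63.5 (-2.41 ± 0.13), and the sterol exporter ABCG1 read 160.0, 159.2 and 177.7 and then 23.8, 20.4 and 29.3 (-2.43 ± 0.13), both with no overlap.

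Lists of the mitochondrial ribosome, nuclear transport, the proteasome, splicing and translation held more falls than rises, by small amounts. Lists of the secretory route did not: coat proteins and secretory machinery had 20 higher and 19 lower of 68, and endoplasmic reticulum folding 8 and 7 of 32. With median centring these too had more falls, 11 higher and 26 lower and 6 and 14. Mitochondrial ribosomal proteins had 0 higher and 65 lower of 76 tested, with a median of -0.43, and 1 rose with quantile normalization. MRPL35, the member with the largest change, read 1295, 1204 and 1216 and then 607.3, 672.7 and 692.5 (-0.91 ± 0.06), with no overlap. Of 54 nuclear pore and importin genes 4 rose and 39 fell (median -0.34), and RANBP1, a cofactor of the Ran GTPase, read 1515, 1530 and 1386 and then 566.0, 683.1 and 670.2 (-1.20 ± 0.08). Of 61 proteasome and chaperonin genes 6 rose and 45 fell, of 115 splicing factors 14 rose and 62 fell, of 55 translation factors 1 rose and 30 fell, and of 32 aminoacyl-tRNA synthetases 6 rose and 16 fell. Their medians were -0.25, -0.18, -0.16 and -0.17. PSMB9, an immunoproteasome subunit, went the other way within its list, from 15.8, 12.3 and 14.8 to 208.5, 211.4 and 203.6 (3.28 ± 0.08), and the splicing factor RBM6 rose by 1.20 ± 0.11. Of 60 cytosolic ribosomal proteins 2 rose (3.33%, against 36.4% of all genes), 15 fell and 43 were not called. With median centring 2 rose and 43 fell, a share of falls above the 38.05% of all genes in that setting, and with quantile normalization 6 rose and 11 fell. The 16 reference genes had 1 higher and 9 lower, with HPRT1, a purine salvage enzyme, down from 1955, 2172 and 1994 to 1117, 1224 and 1196 (-0.79 ± 0.06). The actin 3' to 5' ratio, a sign of RNA length, was 2.09, 2.09 and 2.35 in DMSO and 2.53, 2.05 and 2.07 in erlotinib, so the treatments overlapped. The GAPDH ratio was 1.169, 1.142 and 1.132 in DMSO and 1.200, 1.180 and 1.166 in erlotinib. It was mostly higher with the drug, and the treatments overlapped only narrowly.

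Zinc finger proteins named ZNF, most of them repressors with a KRAB domain, were higher in greater part: of 432 tested, 239 rose and 41 fell, 45 and 2 at least 2-fold, with a median of 0.32. With median centring 186 rose and 72 fell. ZNF117 read 29.5, 62.4 and 54.9 and then 388.8, 275.9 and 280.0 (2.54 ± 0.19), with no overlap, and ZFP57, which guards imprinted genes, rose by 2.81 ± 0.17 from signals of at most 1.4. Of 36 forkhead, SOX and GATA factors 11 rose and 13 fell. SOX7 read 613.4, 685.3 and 609.0 and then 116.1, 109.3 and 133.3 (-2.34 ± 0.09). SOX4 read 623.8, 887.8 and 705.8 and then 2089, 2160 and 1892 (1.47 ± 0.09). The 2 SOX genes were separate in opposite directions. NKX2-1, the lineage factor of lung epithelium, read 11.7, 20.5 and 10.2 and then 55.1, 38.0 and 48.9 (1.34 ± 0.14), and POU2F3, the factor of tuft cells, rose by 2.16 ± 0.15. RARB, a retinoic acid receptor, read 18.6, 24.8 and 27.7 and then 226.8, 201.1 and 227.3 (2.85 ± 0.13), while NR2F1 fell by 1.56 ± 0.11. Of 18 circadian clock genes 4 rose and 7 fell, with PER3 at -1.35 ± 0.12. Of 96 histone and DNA modifiers 37 rose and 18 fell, but 28 and 30 with median centring, with HDAC5 up by 1.95 ± 0.16 and the demethylase KDM7A by 1.85 ± 0.11. Of 26 p53 targets 13 rose and 8 fell, but 10 and 9 with median centring, with TP53I3 up by 1.30 ± 0.09 and AEN at -1.42 ± 0.13. Of 491 long noncoding RNAs and small nucleolar RNA hosts 206 rose and 77 fell, but 154 and 113 with median centring and 159 and 113 with quantile normalization, with LINC01133 at 0.1, 0.3 and 0.7 in DMSO and 136.4, 113.5 and 125.9 in erlotinib (3.99 ± 0.14).

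Genes that changed at least 2-fold also lay next to each other. Among 13135 tested genes with a position, 30 runs of at least 3 neighbours that all rose held 104 genes, and 4 runs that all fell held 13. Beside them stand the 9.62% and 3.41% of tested genes called that way. Of the runs, 8 rising and 1 falling had at least 4 genes, and the longest had 7. On chromosome 12, CLEC7A, OLR1, TMEM52B and GABARAPL1 rose by 3.86, 6.18, 5.19 and 3.57 between positions 10116777 and 10223128 (GRCh38.p14, RefSeq). On chromosome 6, butyrophilins, surface proteins seen by gamma delta T cells, followed histone genes: BTN3A3 read 24.5, 26.8 and 30.0 and then 268.3, 240.1 and 224.3 (2.84 ± 0.09), and BTN3A1 rose by 2.01 ± 0.10. The histone H2AC6 read 204.6, 172.1 and 161.2 and then 1387, 1255 and 1309 (2.83 ± 0.08). Both were separate by treatment. On chromosome 19, PSG3, PSG1, PSG6, PSG7, PSG5, PSG4 and PSG9, the pregnancy-specific glycoproteins, rose by 1.66 to 3.85 on the log2 scale, and on chromosome 20 the cystatins CST1, CST2 and CST5 by 1.45 to 2.19. Members of these families, of the histones, of the GSTM genes and of CYP2B6 and CYP2B7P are near-identical, so each member's own value is uncertain, and a run of them may count 1 signal more than once. The falling run of 4 held the signal regulatory proteins SIRPB2, SIRPB1, SIRPG and SIRPA on chromosome 20. SIRPA, the receptor of CD47, read 327.3, 318.5 and 292.2 and then 118.3, 131.7 and 140.9 (-1.22 ± 0.09). SIRPB1 fell by 2.24 ± 0.11. Another falling run held the arginine deiminases PADI1, PADI3 and PADI4, where PADI4 read 130.0, 125.0 and 139.2 and then 12.6, 14.2 and 20.9 (-2.56 ± 0.15). Runs also held ABCG1 with TFF2 and TFF1, and SPRR1B with S100A9 and S100A8. The run of MAN1A1, TBC1D32 and GJA1 contains the gene on which DMSO replicate 2 stood apart.

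**Figure D4:**
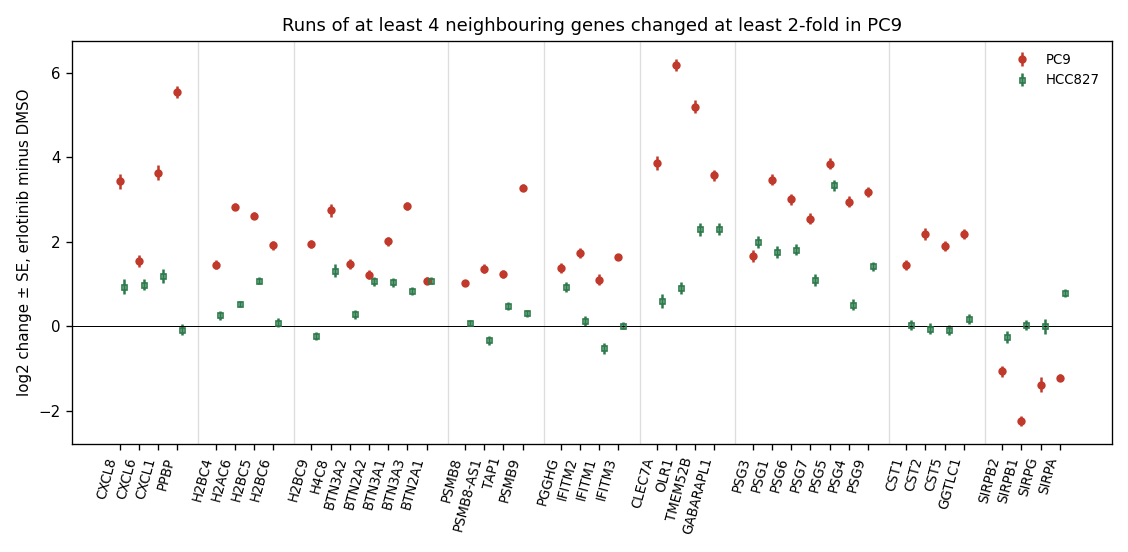
Log2 change with its standard error for the genes in runs of at least 4 neighbours, in gene order, with PC9 as red circles and HCC827 as green squares (3 arrays per group); grey lines part the runs. PC9 changes are all at or beyond 1 in size, which is how runs were chosen. HCC827 changes of the cystatin run lie near 0, and those of the chromosome 11 run lie between -0.52 and 0.93.

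Some of these runs hold interferon-inducible genes. The interferon-stimulated element is shown for some of them, chosen after values were seen, because they lie in runs of neighbours that rose together. Those shown are PARP14 and PARP9 on chromosome 3, IFITM1 and IFITM3 on chromosome 11 and GBP1 on chromosome 1. Their run members DTX3L, IFITM2, PGGHG, GBP2 and GBP3 are not shown. The letters, or their reverse complement, are in capitals.
PARP14, chr3:122680785-122680838, plus strand: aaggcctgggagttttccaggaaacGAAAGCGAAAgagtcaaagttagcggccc
PARP9, chr3:122564307-122564366, minus strand: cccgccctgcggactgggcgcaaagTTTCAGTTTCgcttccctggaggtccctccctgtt
IFITM1, chr11:313975-314034, plus strand: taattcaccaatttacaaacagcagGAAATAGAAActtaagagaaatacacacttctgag
IFITM3, chr11:320861-320937, minus strand: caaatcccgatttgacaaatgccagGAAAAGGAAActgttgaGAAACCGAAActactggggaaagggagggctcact
GBP1, chr1:89065301-89065360, minus strand: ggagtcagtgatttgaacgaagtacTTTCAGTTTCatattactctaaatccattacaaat
PARP14, a mono-ADP-ribosyltransferase, read 109.8, 102.1 and 93.2 in DMSO and 377.2, 372.5 and 433.6 in erlotinib (1.88 ± 0.08), and PARP9 rose by 1.16 ± 0.08. IFITM3, a membrane protein that blocks viral entry, read 282.7, 307.1 and 248.4 and then 950.6, 916.8 and 791.4 (1.64 ± 0.08). IFITM1 rose by 1.10 ± 0.13 but stayed between 8.7 and 14.2, near the median of the table. PARP14 and IFITM3 had no overlap between treatments.

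The PC9 change was tested against the HCC827 change, and the lines share no array. The actin 3' to 5' ratio of HCC827 was 2.21, 2.10 and 2.19 in DMSO and 2.45, 2.99 and 3.64 in erlotinib, with no overlap. The GAPDH ratio of HCC827 was 1.171, 1.193 and 1.146 in DMSO and 1.265, 1.305 and 1.543 in erlotinib, also with no overlap. RNA length thus went with the drug in HCC827. In PC9 the actin ratio overlapped and the GAPDH ratio was mostly higher with the drug. The part of RNA length in the differences between the lines was not tested. The difference was called for 5954 genes (45.2%), for 1004 of the 1267 rises and 391 of the 449 falls of at least 2-fold. Of the 1716 genes that changed at least 2-fold in PC9, 410 had a 2-fold call in the same direction in HCC827, in which 760 genes rose (5.77%) and 193 fell (1.47%) by as much. Of the PC9 rises, 876 were called higher, 59 lower and 332 not called in HCC827, and of the PC9 falls 249 were called lower, 53 higher and 147 not called. NOG went opposite ways, at -2.43 ± 0.10 in PC9 and 3.17 in HCC827, a difference of -5.61 (adjusted p = 2.11e-13). HBEGF, an EGFR ligand, read 387.2, 403.6 and 414.8 and then 105.6, 134.5 and 139.5 in PC9 (-1.62 ± 0.09) and changed by 2.23 in HCC827. MUC4 changed by 2.60 in PC9 and -2.69 in HCC827, and RGS7, a regulator of G protein signalling, by 2.50 and -2.05. For each of these 4 genes the lines differed in direction, and both changes passed. For PPBP, CRISP3 and PTGS2 the PC9 rises of 5.54, 4.70 and 4.997 stood beside HCC827 changes of -0.08, -0.09 and 0.36. MAP2, by contrast, changed by 3.78 and 3.98, and LUM by 3.57 and 3.77, with adjusted p of the difference of 0.313 and 0.439. The lists followed in part: the median of mitochondrial ribosomal proteins was -0.43 in PC9 and -0.11 in HCC827, and that of collagens 0.75 and 0.72.

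**Figure D5:**
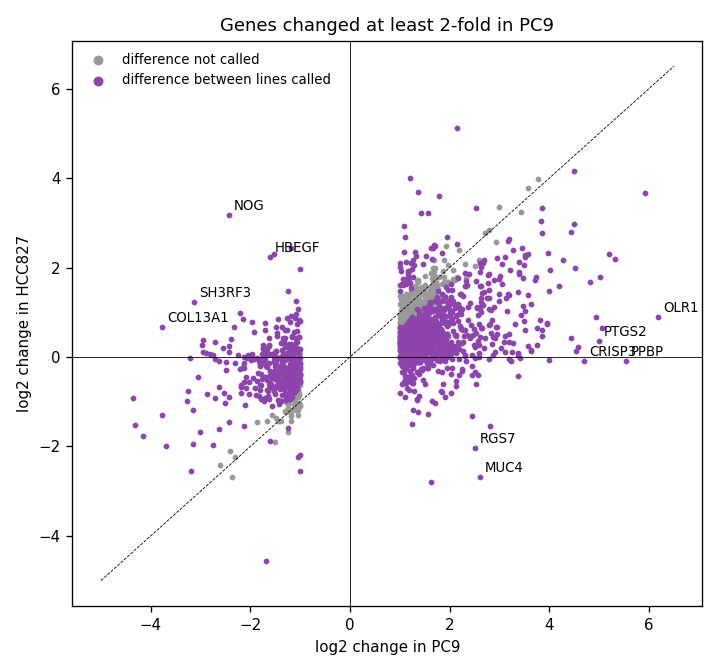
Log2 change in PC9 (horizontal) and in HCC827 (vertical) of the 1716 genes that changed at least 2-fold in PC9, each from 3 arrays per treatment; purple points are those whose difference between the lines was called, grey points the others, and the dashed line marks equal change. The gap around 0 on the horizontal axis follows from the choice of genes, and NOG, HBEGF, MUC4 and RGS7 lie in the quadrants of opposite direction.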

How the data were processed

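The deposited table holds 1 signal intensity per probe set and array on a linear scale, made by the authors with MAS5 per the submitters' processing notes (version not given in the sources used here); its 54675 probe sets are 62 controls and 41091, 1801 and 11721 with 1, several or no symbol in the platform annotation. Per the labels, extraction used RNeasy Plus and labelling used NuGEN Ovation reagents. All 12 arrays entered the fit and none was left out. Array medians were 11.1 to 14.5, the table gives no detection calls, and precision rests on 3 arrays per group.

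Each gene was represented by its brightest probe set on average, and 8 was added before log2. A gene was kept if the mean log2 value of at least 1 group reached that of signal 13, the table's median. limma 3.58.1 in R 4.3.3 fitted 1 mean per group with an intensity trend in the variance, and p-values were adjusted by Benjamini-Hochberg over 13165 genes and called under 0.05. Pairing by replicate number was checked and not found: same-numbered PC9 arrays deviated with correlations of -0.260, -0.194 and -0.0239. Tested on simulated data for the PC9 contrast (13165 genes, 200 changed), the fit found 72% of the genes changed by log2 0.5 and 100% of those changed by log2 1, and made 5 false calls. The changed genes were drawn from brighter genes only and the noise was normal, so recovery among dim genes was not tested. Far fewer genes were changed than the 64.7% called in the data.

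The 71 lists, defined by symbol patterns, and the rule for named genes were chosen with earlier results of these data known, so lists are described by counts and medians and not tested, and 1 list is not reported here; the pattern for interleukins was corrected after the values were seen, because it had taken in receptors. Among called genes whose treatments did not overlap, places 7 to 18 by log2 change and the 8 largest signal changes, each way, were named. Up to 3 members of each list, the 6 largest differences from HCC827 each way, EGFR and members of runs of neighbours were added. All named genes came to 302, of which some are given. Of the 302, 183 had other probe sets, and 1 gene, ITGAM, had an opposite call on another. The absence of an opposite call is not agreement. No other probe set was called in the same direction for TP53INP1, DCLK2, SLCO4A1, TRDV3, IL23A, MMP24, MYL9, LUM or DNAH5. The same held for HPRT1, PER3, NKX2-1, POU2F3, CASP10, RGS7, PARP14 and PXYLP1, among others. The changes given for these genes are those of the probe set used. Gene positions and promoters are from RefSeq (GRCh38.p14). Alternatives were other constants, scalings, filters, probe set rules, variance models, a replicate block, a test against 1.5-fold and leaving out each array.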

Additional observations from a re-analysis of the deposited data

Results flagged for a closer look

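The PC9 change differed from the HCC827 change, by the test of that difference in limma, for 5954 genes. The limit from RNA length in HCC827 given above applies to them. The 12 with the largest differences among genes changed at least 2-fold in PC9 are given as the PC9 change minus the HCC827 change in log2 units. Above 0 were the chemokine PPBP (5.63), the membrane mucin MUC4 (5.29), the lipoprotein receptor OLR1 (5.28), the secreted CRISP3 (4.79), the cyclooxygenase PTGS2 (4.63) and the signalling regulator RGS7 (4.55). Below 0 were the BMP antagonist NOG (-5.61), the transmembrane collagen COL13A1 (-4.45), the scaffold SH3RF3 (-4.37), the EGFR ligand HBEGF (-3.84), the protease PAPPA of IGF-binding proteins (-3.83) and the phosphatase PXYLP1 (-3.62). PAPPA read 110.7, 143.6 and 124.2 in PC9 DMSO and 41.2, 31.7 and 42.3 in erlotinib, a change of -1.53 ± 0.12, and changed by 2.29 in HCC827. PXYLP1 changed by -1.19 ± 0.10 in PC9 and 2.43 in HCC827.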

How the results depend on the processing

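The direction and call of all 302 named genes were kept in each of the 22 settings in which they were fitted (6581 values). List medians moved by more than the spread between arrays in 180 of 1561 values. These 180 values came from 66 of the 71 lists, so most list medians moved in at least 1 setting. Of 47 lists with more rises than falls, 12 no longer had more rises with median centring and 2 with quantile normalization. With 32 in place of 8, at least 2-fold rises numbered 726 and falls 292, and 2202 genes passed a test against 1.5-fold; both are stricter by construction. With median centring they numbered 982 and 658, and 41.6% of called genes were higher, against 56.2%; quantile normalization gave 1009, 570 and 51.4%. Leaving out 1 array gave 7913 to 8525 genes called, 1212 to 1293 higher and 439 to 470 lower by at least 2-fold, and 5268 to 5946 called for the difference between lines. With the replicate number as a block 8438 genes were called, 1267 and 449 by at least 2-fold, and 5760 for the difference; the numbers mark no stated pairing. Genes near background have changes that depend on the constant, and 6610 genes were too dim to test.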

Other observations

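Some gene groups that the account above does not describe also held strong PC9 changes. Of 30 genes of the apolipoprotein L, gasdermin and pyroptosis list 20 rose and 2 fell, with a median log2 change of 0.47. GSDMB, a gasdermin, read 27.3, 26.7 and 26.6 in DMSO and 227.2, 215.6 and 181.4 in erlotinib (2.63 ± 0.10), and the initiator caspase CASP10 rose by 1.93 ± 0.09. Of 44 tripartite motif proteins 22 rose and 10 fell (17 and 12 with median centring). TRIM22, an interferon-inducible ubiquitin ligase, read 0.8, 12.5 and 3.2 and then 64.6, 47.9 and 45 (2.25 ± 0.23), whereas TRIM7 read 239.0, 175.5 and 198.7 and then 50.8, 55.7 and 58.3 (-1.75 ± 0.14). The treatments were separate for both genes.

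Of 75 G protein-coupled receptors 29 rose and 18 fell, 38.7% and 24%, near the 36.4% and 28.3% of all genes tested. At least 2-fold, 14 rose and 2 fell, 18.7% and 2.67%, against 9.62% and 3.41% of all genes. Their median was 0.02, against 0.05 for all genes, and 27 rose and 25 fell with median centring. ACKR3, a scavenging chemokine receptor, read 346.2, 414.9 and 381.5 and then 1708, 1672 and 1750 (2.15 ± 0.10), and CCRL2, another receptor that binds chemoattractants without signalling, read 352.0, 297.7 and 326.4 and then 63.5, 74.6 and 71.4 (-2.10 ± 0.12). These 2 atypical receptors moved in opposite directions on every array. Of 39 receptor phosphatases and phosphodiesterases 17 rose and 11 fell, but 10 and 15 with median centring, with PDE5A, which breaks down cyclic GMP, at 35.9, 50 and 56.3 and then 388.7, 423.8 and 425.6 (2.94 ± 0.11). Of 81 sphingolipid and phospholipid signalling genes 47 rose and 19 fell (37 and 23 with median centring), with the ceramidase ACER2 up by 1.79 ± 0.15. Of 73 mucin-type and sialic acid glycosyltransferases 23 rose and 17 fell, but 17 and 24 with median centring, and B3GNT3 read 440.6, 372.7 and 410.2 and then 121.2, 130.4 and 122.4 (-1.65 ± 0.08), with no overlap.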
